A study of Homo sapiens with 12 samples.

Results

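Type II keratins are the basic to neutral class of the keratin intermediate filament proteins of epithelial cells. The genes described are KRT1, KRT4, KRT5, KRT6A, KRT6B, KRT6C, KRT7, KRT8, KRT75 and KRT80, chosen by symbol as members of that family and by no measured threshold. They are 10 of the 61044 rows of the deposited gene table, and all 10 were found in it. Their RNA was measured in SCC-15, a human tumour cell line from a squamous cell carcinoma of the mouth that has long been in culture, from which total RNA was taken at 48 hours. Cells carried either a control hairpin RNA, here NC, or a hairpin RNA for knockdown of FMOD, of which there were 3, called shRNA1, shRNA2 and shRNA3, with 3 libraries in each of the 4 groups. All groups share the same parent line and culture medium, but the labels do not say whether NC and hairpin cells came from the same culture of it, so effects of hairpin and of culture cannot be told apart. FMOD is the gene of fibromodulin, a proteoglycan of the extracellular matrix. The comparison asks what its knockdown does to RNA levels, and the series title places FMOD before EGFR signalling. How the hairpins were delivered, whether a clone or a pool of cells was used and how FMOD protein changed are not given in the sources used here.

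A keratin filament is built from obligate pairs of 1 type I (acidic) and 1 type II chain, so each type II keratin has usual partners. The pairs mark the state of an epithelium. KRT5 with KRT14 or KRT15 forms the network of basal cells in stratified epithelium, KRT4 with KRT13 that of the upper layers of the non-keratinising oral lining, and KRT1 with KRT10 that of keratinising layers. KRT6 chains with KRT16 or KRT17 appear in wounds, hyperplasia and many squamous carcinomas. KRT8 with KRT18, and KRT7 with KRT19, belong to simple and glandular epithelia and are often found in carcinoma cells. KRT75 is a keratin of the hair follicle and the tongue papillae. KRT80 is a keratin that lies near desmosomes and cell edges as cells differentiate. In bulk RNA, fewer cells of a type and less RNA per cell cannot be told apart.

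Levels are given in CPM (a gene's count on a common library total), scaled between libraries by TMM, which corrects for a few very abundant genes taking up much of a library. A change was called at an adjusted p under 0.05 by edgeR's quasi-likelihood F test with Benjamini-Hochberg adjustment over the 17532 genes that passed a filter on low counts, and all adjusted p-values below are from it. The labels do not say that the 3 libraries of a group came from separate cultures, so p-values measure the spread between these libraries, which may be technical. Library totals lay between 17286934 and 19567192 counts. FMOD itself was near the limit of detection, with 2, 2 and 3 counts in the NC libraries and 0 in each of the 9 shRNA libraries, so 3 counts of a library allow up to 0.222 CPM there. The hairpin groups differed from NC very widely. With library correlations taken over log2 CPM of all genes tested, an NC and an shRNA library correlated at 0.773 to 0.795, and 2 NC libraries at 0.987. Libraries 1 and 2 of shRNA3 stood apart from library 3 of shRNA3, with TMM factors of 0.771 and 0.794 (all others from 0.979 to 1.11) and a lowest correlation of 0.908 within that group. Results for shRNA3 are therefore also given without them where that ends a call, turns a sign or moves a fold by over 1.5 times. Leaving them out also raised the share of all genes called, to 71.3%, 68.1% and 56.9% with shRNA1, shRNA2 and shRNA3. The 12 squamous epithelial markers were read in every group, with a summed level of 3949 to 4291 CPM in NC, 2953 to 3291 with shRNA1, 3359 to 3424 with shRNA2 and 3492 to 8203 with shRNA3. Of these, KRT14 and PERP rose and CDH1 and DSC3 fell with all 3 hairpins.

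KRT6A, KRT6B and KRT6C are near-identical copies, and their counts depend on how reads that match more than 1 copy were shared out. Over 1692 aligned coding bases KRT6A was 97.5% identical to KRT6B and 97.9% to KRT6C, and KRT6B and KRT6C were 98.5% identical. The 3 stretches below show what a read can and cannot tell apart. They run 5′ to 3′ over coding positions 628 to 747, counted from the A of the start codon in GENCODE transcripts on GRCh38. Capitals mark the 10 positions of this window that are not the same in all 3 genes, of 51 in the whole coding sequence.
KRT6A: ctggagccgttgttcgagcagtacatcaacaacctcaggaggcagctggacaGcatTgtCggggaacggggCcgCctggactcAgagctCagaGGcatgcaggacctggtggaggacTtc
KRT6B: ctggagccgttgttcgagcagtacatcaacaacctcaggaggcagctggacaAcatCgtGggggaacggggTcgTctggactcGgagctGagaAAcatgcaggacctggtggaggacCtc
KRT6C: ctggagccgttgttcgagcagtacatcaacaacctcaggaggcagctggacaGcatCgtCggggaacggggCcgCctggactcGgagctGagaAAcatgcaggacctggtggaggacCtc
Within this window, a read that lies wholly before the first capital fits all 3 genes, and a read that spans the capitals can tell them apart. Of all 100-base words in the annotated transcripts, 13.6% of those of KRT6A, 24.6% of those of KRT6B and 24.7% of those of KRT6C also occur in another gene. The share is 0.72% for KRT5 and 1.6% for KRT8, and 0 of the words of KRT1, KRT4, KRT7, KRT75 and KRT80 are shared. These shares depend on the word length. With 50-base words they were 32.1%, 47.1% and 44.4% for KRT6A, KRT6B and KRT6C and 10.1% for KRT8. With 150-base words they were 6.73%, 12.8% and 12.8% for the KRT6 genes and 0 for KRT8. KRT8 has 51 annotated pseudogenes in the table, which together held 0.25% to 0.59% of the KRT8 count. In all 12 libraries the deposited values of KRT6A, KRT6B, KRT6C and KRT8 were not whole numbers. The same held in 11 of 12 libraries for KRT5 and for KRT7, in 5 for KRT80, and in 0 for KRT1, KRT4 and KRT75.

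All 10 genes lie on chromosome 12 (GRCh38, GENCODE release 29), inside a cluster of 27 keratin genes from 52168996 to 52952901 that ends with the type I gene KRT18. KRT7 (52232520 to 52252186, plus strand) overlaps KRT86 on the same strand. KRT8 (52897187 to 52949954, minus strand) overlaps KRT18 on the opposite strand. KRT5 (52514575 to 52520687) and KRT6A (52487174 to 52493257) are on the minus strand and overlap no annotated gene, and KRT80 (52168996 to 52192000, minus strand) overlaps the non-coding gene LINC00592 on the other strand. Whether counting used strand is not given in the sources used here, so reads in the shared parts of overlapping genes cannot be assigned.

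The type II keratins changed in both directions. KRT4, KRT6A, KRT7 and KRT8 rose with each of the 3 hairpins, and KRT5 and KRT80 fell with each. KRT75 rose with shRNA2 and shRNA3, KRT6B fell with shRNA1, and KRT6C passed the test in no comparison with NC. KRT1 had too few counts to be tested. Of the 9 genes tested, 4 rose and 3 fell with shRNA1, where 57.4% of all genes tested were called (26.8% higher and 30.6% lower). With shRNA2 5 rose and 2 fell, against 53% of all genes (24.6% higher and 28.4% lower). With shRNA3 5 rose and 2 fell, against 53.9% of all genes (26.4% higher and 27.6% lower). For the mean of the 3 hairpins, 7 of the 9 were called, against 60% of all genes. In 6 of the 9 genes every one of the 9 shRNA libraries lay beyond every NC library, as was true of 44.8% of all genes tested. The counts are thus read against a background in which most genes were called.

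Over the 9 genes the median size of the log2 change was 1.62 with shRNA1, 2.21 with shRNA2 and 1.49 with shRNA3, beside 0.92, 0.85 and 0.87 over all genes tested. The signed medians were 1.43, 1.73 and 1.20, beside -0.02, -0.05 and -0.03 over all genes. With KRT4 and KRT75 at the lower bounds given below in place of their fitted values, the signed median for shRNA1 was 0.54 and its median size 1.43, and the medians for shRNA2 and shRNA3 did not move. The NC libraries are shared by the 3 comparisons, so the agreement of their signs is not independent evidence.

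Fewer calls were made between hairpins than against NC, among the type II keratins as among all genes. Between shRNA1 and shRNA2, 2 of the 9 genes were called, KRT4 and KRT5, against 12.3% of all genes tested. Between shRNA1 and shRNA3 it was KRT5, 1 of 9 against 30% of all genes. Between shRNA2 and shRNA3 it was KRT6A, 1 of 9 against 8.34% of all genes. With 1 library left out at a time these counts ranged from 1 to 4, from 1 to 4 and from 0 to 4. The share of all genes called in those fits is not set beside them here.

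**Figure D1:**
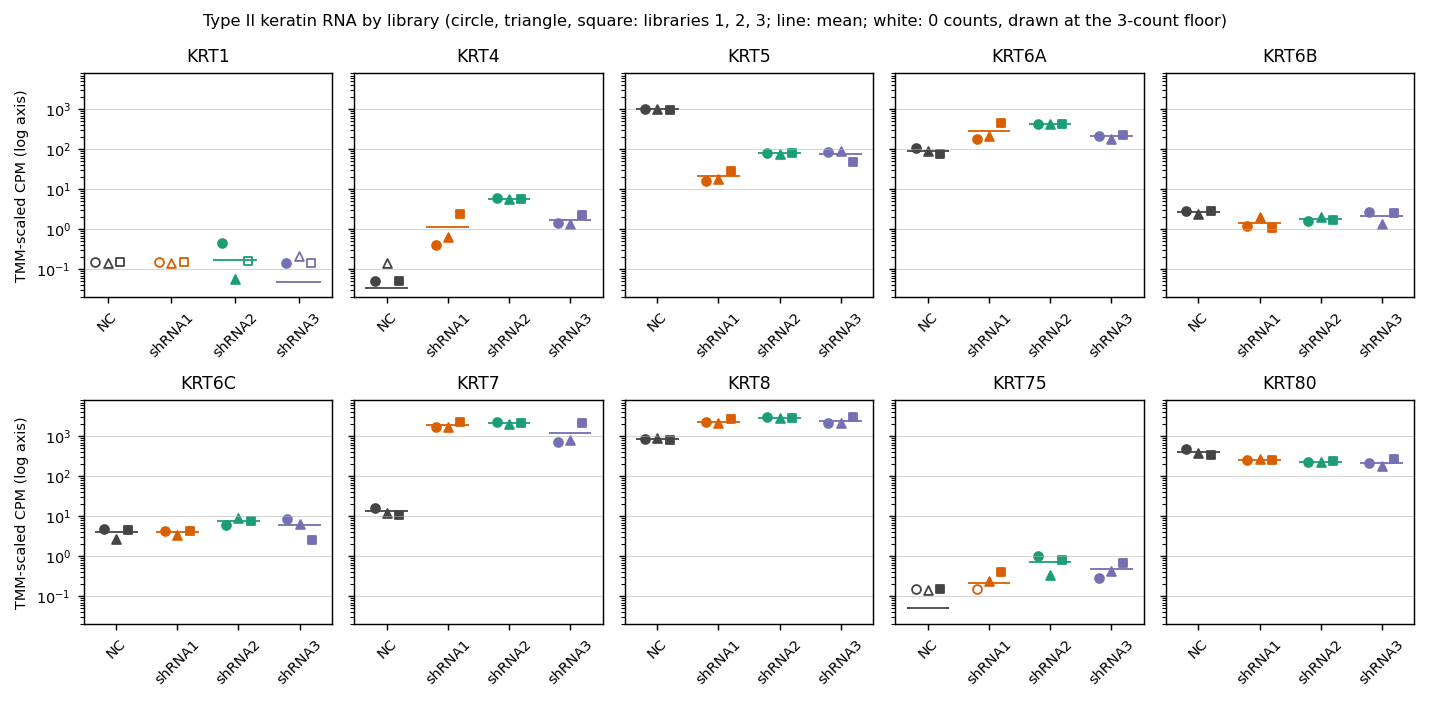
TMM-scaled CPM on a log axis for each of the 10 type II keratin genes in the 12 libraries, grouped as NC, shRNA1, shRNA2 and shRNA3 (circle, triangle and square for libraries 1, 2 and 3, lines for group means). White symbols are libraries with 0 counts, drawn at the level of 3 counts. KRT5 falls from 964 CPM or more in NC to 90.2 CPM or less, KRT7 rises from 16.4 CPM or less to 728 CPM or more, and library 3 of shRNA3 stands above the other libraries of its group for KRT7.

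KRT5, the type II keratin of basal cells, fell most. Its level in the NC libraries was 1012, 1048 and 964 CPM. It was 16.5, 18.6 and 29.03 CPM with shRNA1, 82.0, 77.3 and 80.9 CPM with shRNA2, and 84.7, 90.2 and 49.6 CPM with shRNA3. No shRNA library came near an NC library, and the shRNA1 libraries lay below all others. The fall was 47.1-fold with shRNA1 (log2 change -5.56, SE 0.29, adjusted p = 1.76e-07), 12.6-fold with shRNA2 (log2 change -3.65, SE 0.26, adjusted p = 1.08e-06) and 13.5-fold with shRNA3 (log2 change -3.75, SE 0.27, adjusted p = 9.91e-07). Without libraries 1 and 2 of shRNA3 the fall with shRNA3 was 19.9-fold. KRT5 was the member with the clearest difference between hairpins. It was 3.75-fold lower with shRNA1 than with shRNA2 (adjusted p = 0.00192, edgeR) and 3.50-fold lower with shRNA1 than with shRNA3 (adjusted p = 0.00257, edgeR). The second of these was lost when the 6 libraries of those groups were fitted alone (adjusted p = 0.117). Between shRNA2 and shRNA3 the groups overlapped (log2 difference 0.10, SE 0.24, adjusted p = 0.795, edgeR).

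The usual type I partners of KRT5 did not fall with it. KRT14 stood at 6.51, 6.64 and 9.58 CPM in NC, at 52.1 to 57.8 CPM with shRNA1, at 24.2 to 25.1 CPM with shRNA2, and at 230.3, 191.5 and 25.1 CPM with shRNA3. KRT14 thus rose while KRT5 fell, by a log2 change of 2.87 with shRNA1 (adjusted p = 0.00148), 1.69 with shRNA2 (adjusted p = 0.0256) and 4.29 with shRNA3 (adjusted p = 0.000155). The call for shRNA2 was lost in 5 alternatives, among them without NC library 2 (adjusted p = 0.0803). Libraries 1 and 2 of shRNA3 held far more KRT14 than library 3, which was at the level of shRNA2, and without them the log2 change with shRNA3 was 1.76. KRT15, another partner in basal cells, stood at 15.5 to 20.1 CPM in NC and at 38.4 to 54.8 CPM in the shRNA1 and shRNA2 libraries. In shRNA3 it was at 282.4, 298.1 and 67.4 CPM, again with library 3 apart. Its log2 changes were 1.38, 1.45 and 3.57 (adjusted p = 0.014, 0.012 and 5.54e-05), the last being 1.91 without libraries 1 and 2. The call of KRT15 with shRNA1 was lost without NC library 1 (adjusted p = 0.0522). The opposite direction of KRT5 and its partners held for all 3 hairpins. TP63, a transcription factor of basal squamous cells, was at 156 to 175 CPM in NC, at 124 to 141 CPM with shRNA1, at 81.6 to 84.5 CPM with shRNA2, and at 66.4, 51.5 and 123.7 CPM with shRNA3. It fell with shRNA2 (log2 change -0.99, adjusted p = 0.00613) and with shRNA3 (-1.03, adjusted p = 0.00483). Without libraries 1 and 2 of shRNA3 its change with shRNA3 was -0.38 (adjusted p = 0.0155), and with only the NC and shRNA3 libraries in the fit the call was lost (adjusted p = 0.0521). With shRNA1 its log2 change was -0.30 (adjusted p = 0.326), which passed at -0.29 when libraries 1 and 2 of shRNA3 were left out of the fit (adjusted p = 0.00748).

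KRT7, a keratin of simple and glandular epithelia, rose most among the members with NC counts above the floor. It was at 16.4, 12.4 and 11.1 CPM in the NC libraries. It reached 1688, 1686 and 2249 CPM with shRNA1, 2245, 2084 and 2192 CPM with shRNA2, and 728, 826 and 2108 CPM with shRNA3. Every shRNA library exceeded every NC library by a wide margin, and libraries 1 and 2 of shRNA3 were the lowest of the 9. The rise was 141-fold with shRNA1 (log2 change 7.14, SE 0.45, adjusted p = 4.71e-07), 163-fold with shRNA2 (log2 change 7.35, SE 0.46, adjusted p = 4.03e-07) and 91.6-fold with shRNA3 (log2 change 6.52, SE 0.44, adjusted p = 7.22e-07). Without libraries 1 and 2 of shRNA3 the last was 162-fold, and without library 3 it was 58.2-fold. Pairs of hairpins did not pass the test for KRT7, with log2 differences of -0.21 (SE 0.34) for shRNA1 against shRNA2, 0.62 (SE 0.35) for shRNA1 against shRNA3 and 0.83 (SE 0.35) for shRNA2 against shRNA3. The last pair passed without library 3 of shRNA3 (log2 difference 1.50, adjusted p = 1.8e-06), as did shRNA1 against shRNA3 (1.28, adjusted p = 5.63e-06), while without libraries 1 and 2 the difference of shRNA1 and shRNA3 turned to -0.18.

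KRT19, a type I keratin found with KRT7 in simple epithelia, moved from 0.908, 0.590 and 1.014 CPM in NC to 246 to 323 CPM with shRNA1, 918 to 983 CPM with shRNA2 and 477 to 586 CPM with shRNA3. KRT19 and KRT7 were therefore both low in NC and high in all 9 shRNA libraries. The log2 changes of KRT19 were 8.35, 10.14 and 9.27 (adjusted p = 1.08e-08, 2.32e-09 and 4.7e-09).

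KRT8, the type II keratin of simple epithelia and among the first keratins made in the embryo, was abundant in every library and rose with each hairpin. It stood at 875, 908 and 828.5 CPM in NC, at 2223, 2127 and 2677 CPM with shRNA1, at 3005, 2789 and 2896 CPM with shRNA2, and at 2163, 2184 and 2983 CPM with shRNA3. The NC and shRNA libraries did not overlap. The rise was 2.69-fold with shRNA1 (adjusted p = 3.34e-05), 3.33-fold with shRNA2 (adjusted p = 8.98e-06) and 2.81-fold with shRNA3 (adjusted p = 2.73e-05). KRT18, its partner and its neighbour in the genome, stood at 560.0 to 599 CPM in NC, at 933 to 1339 CPM with shRNA1, at 1036 to 1138 CPM with shRNA2 and at 977 to 1592 CPM with shRNA3. KRT18 rose 1.88-fold, 1.88-fold and 2.09-fold (adjusted p = 0.00252, 0.00271 and 0.00105), so both chains of this pair rose with each hairpin. The pairs of hairpins did not pass the test for KRT8, with log2 differences between -0.31 and 0.25 (SE 0.17 each).

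KRT6A, the most read of the wound-associated KRT6 copies, rose with each hairpin. In NC it was at 108, 90.6 and 78 CPM. It was at 185, 215 and 451 CPM with shRNA1, at 433.5, 427 and 424 CPM with shRNA2, and at 216, 186 and 232 CPM with shRNA3. Library 3 of shRNA1 lay far above the other libraries of shRNA1 and beside those of shRNA2. The rise was 3.08-fold with shRNA1 (log2 change 1.62, SE 0.29, adjusted p = 0.000576), 4.64-fold with shRNA2 (2.21, SE 0.29, adjusted p = 7.79e-05) and 2.29-fold with shRNA3 (1.20, SE 0.28, adjusted p = 0.00408). Without library 3 of shRNA1 the log2 change with shRNA1 was 1.12, and shRNA1 then lay below shRNA2 (log2 difference -1.10, adjusted p = 0.00314, edgeR), a pair that did not pass with all libraries (-0.59, adjusted p = 0.193). KRT6A was 2.03-fold higher with shRNA2 than with shRNA3 (adjusted p = 0.0493, edgeR), a call that was lost in 14 of 21 alternatives, such as without libraries 1 and 2 of shRNA3 (adjusted p = 0.363).

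KRT6B and KRT6C were read at a few CPM. KRT6B was at 2.83, 2.46 and 2.94 CPM in NC and at 1.24, 2.03 and 1.08 CPM with shRNA1, groups that did not overlap. With shRNA2 it was at 1.64, 2.08 and 1.72 CPM, and with shRNA3 at 2.74, 1.38 and 2.53 CPM. The fall passed the test for shRNA1 alone (1.88-fold, adjusted p = 0.0394) and was lost in 10 of 20 alternatives. Whether shRNA1 differs from the other hairpins in KRT6B was not shown, since no pair of hairpins passed the test for it. KRT6C was at 4.79, 2.71 and 4.66 CPM in NC, at 3.48 to 4.33 CPM with shRNA1, at 5.97 to 9.12 CPM with shRNA2 and at 8.74, 6.41 and 2.58 CPM with shRNA3. Its log2 changes were -0.01 (SE 0.40), 0.90 (SE 0.40) and 0.54 (SE 0.40), with adjusted p = 0.988, 0.0784 and 0.28. The change with shRNA3 turned to -0.62 without libraries 1 and 2 of that group, and passed without library 3 (0.90, adjusted p = 0.00813). KRT6C with shRNA2 also passed when libraries 1 and 2 of shRNA3 were left out of the fit (adjusted p = 0.00503).

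Because reads can move between the 3 copies, their sum is the firmer value. KRT6A, KRT6B and KRT6C together rose 2.92-fold, 4.42-fold and 2.22-fold with shRNA1, shRNA2 and shRNA3 (adjusted p = 0.000678, 8.3e-05 and 0.00454). KRT6A held 91.1% to 94.6% of the KRT6 counts in NC and 94.95% to 98.8% in the shRNA libraries. KRT6B held 2.44% to 3.43% in NC and 0.24% to 1.21% in the shRNA libraries, without overlap.

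The partners of KRT6A moved less evenly. KRT17 was at 280 to 345 CPM in NC and at 539 to 865 CPM in the 9 shRNA libraries, and it rose 2.07-fold, 1.83-fold and 2.40-fold (adjusted p = 0.000499, 0.00181 and 0.00016). KRT16 was at 8.86 to 11.4 CPM in NC and at 9.54 to 15.9 CPM with shRNA1 and shRNA2, where it did not pass (adjusted p = 0.608 and 0.158). Its 1.53-fold difference with shRNA2 passed when libraries 1 and 2 of shRNA3 (adjusted p = 0.00427) or library 3 of shRNA3 (adjusted p = 0.00166) were left out of the fit, and with only the NC and shRNA2 libraries (adjusted p = 0.000287). With shRNA3 it was at 83.3, 80.5 and 27.8 CPM and rose 6.29-fold (adjusted p = 8.77e-05), again with library 3 the lowest (log2 change 2.65, or 1.48 without libraries 1 and 2).

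KRT4, the type II keratin of the upper layers of oral lining, was almost unread in NC, with 1, 0 and 1 counts. It had 8, 13 and 48 counts with shRNA1, 107, 100 and 103 with shRNA2, and 19, 19 and 45 with shRNA3, or 0.398 to 6.26 CPM. Every shRNA library was above every NC library, and the shRNA2 libraries were the highest. Since all NC libraries were at or under 3 counts, the fold is a lower bound against the level of 3 counts per library. KRT4 was at least 7.77-fold higher with shRNA1, at least 39.0-fold higher with shRNA2 and at least 11.1-fold higher with shRNA3 (adjusted p = 0.000706, 3.54e-05 and 0.000349). Library 3 of shRNA1 carried most of the counts of its group, and without it KRT4 was at least 3.42-fold higher with shRNA1 (adjusted p = 0.000811). It was 5.02-fold lower with shRNA1 than with shRNA2 (adjusted p = 0.0254, edgeR). That difference was lost when library 1 or 2 of shRNA1 or any 1 library of shRNA2 was left out, with adjusted p-values up to 0.113, and was 11.3-fold without library 3 of shRNA1 (adjusted p = 0.00172). Over the libraries left out in turn it ranged from 3.77-fold to 11.3-fold. Without library 3 of shRNA1, KRT4 was also lower with shRNA1 than with shRNA3 (3.24-fold, adjusted p = 0.0246) and higher with shRNA2 than with shRNA3 (3.48-fold, adjusted p = 0.0293), pairs that did not pass with all libraries. KRT13, its partner, had 4, 4 and 1 counts in NC and reached 380 to 467 CPM with shRNA1, 1420 to 1503 CPM with shRNA2, and 1508, 1323 and 702 CPM with shRNA3 (adjusted p = 3.46e-08, 1.73e-08 and 2.29e-08). Both chains of this pair thus went from a few counts in NC to a called rise with each hairpin.

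KRT80, a keratin tied to desmosomes, fell with each hairpin by a modest amount. It was at 485, 386 and 334 CPM in NC. It was at 253, 264.5 and 254.5 CPM with shRNA1, at 229, 234 and 237 CPM with shRNA2, and at 211, 183 and 266 CPM with shRNA3. The groups did not overlap, though the NC libraries themselves spread more than those of shRNA1 or shRNA2. The fall was 1.56-fold, 1.72-fold and 1.83-fold (adjusted p = 0.00637, 0.00208 and 0.00109). No pair of hairpins passed the test, with log2 differences of 0.08 to 0.23 (SE 0.17 each).

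KRT75 had 0, 0 and 3 counts in NC, 0, 5 and 8 with shRNA1, 17, 6 and 15 with shRNA2, and 4, 6 and 14 with shRNA3. It was at least 4.80-fold higher with shRNA2 (adjusted p = 0.0153) and at least 3.17-fold higher with shRNA3 (adjusted p = 0.0376), and the shRNA1 libraries overlapped NC (adjusted p = 0.185). The call for shRNA2 was lost in 3 of 20 alternatives and that for shRNA3 in 8 of 20, among them without NC library 1 (adjusted p = 0.0618 and 0.119). KRT1, a keratin of keratinising layers, had 0 counts in the NC and shRNA1 libraries, 8, 1 and 0 with shRNA2 and 2, 0 and 0 with shRNA3. A count of 0 allows up to 0.145 to 0.222 CPM in these libraries. Only library 1 of shRNA2, at 0.468 CPM, lay above that range. Any difference in KRT1 thus rests on 1 library and was not tested. KRT10, its partner, was read in every library, at 19.6 to 25.6 CPM in NC, 27.8 to 37.2 CPM with shRNA1 and shRNA2, and 107, 134 and 28.4 CPM with shRNA3. With all libraries KRT10 passed the test with shRNA3 (log2 change 2.02, adjusted p = 0.0017) and not with shRNA1 or shRNA2. Without libraries 1 and 2 of shRNA3 the calls changed places. KRT10 then passed with shRNA1 (0.46, adjusted p = 0.00579) and shRNA2 (0.71, adjusted p = 0.000274), and its change of 0.39 with shRNA3 did not (adjusted p = 0.0747). With shRNA1 and shRNA2 it also passed without library 3 of shRNA3 (adjusted p = 0.00526 and 0.000194). These floors and intervals cover counting error only.

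**Figure D2:**
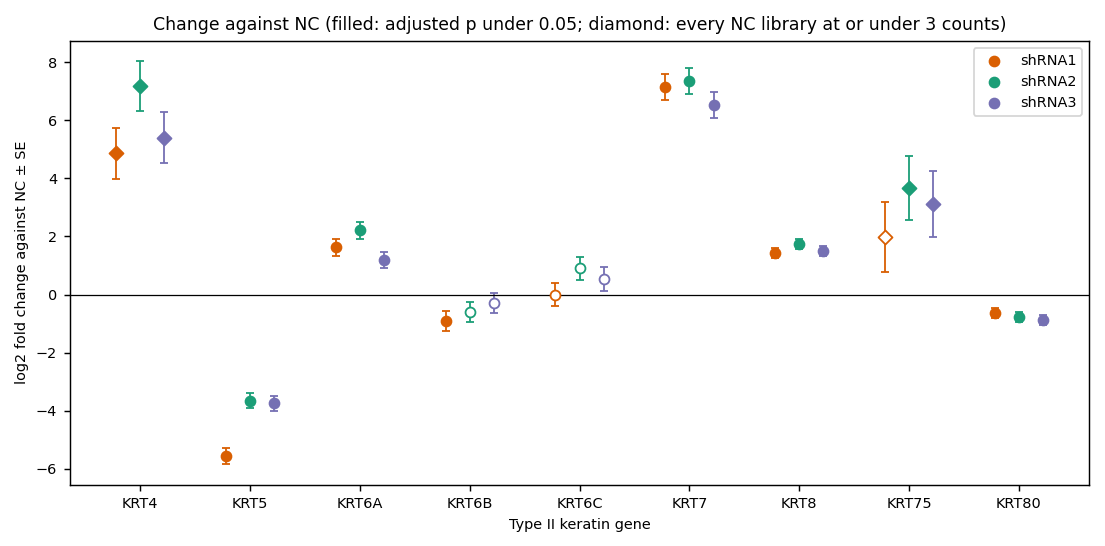
The log2 fold change against NC with its standard error for the 9 type II keratin genes tested, for shRNA1, shRNA2 and shRNA3 (filled symbols passed at adjusted p under 0.05, diamonds have every NC library at or under 3 counts, so their fitted value is not a size). KRT7 lies near 7 for all 3 hairpins, KRT5 lies at -5.56 for shRNA1 and near -3.7 for the others, and KRT6C is open throughout.

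**Figure D3:**
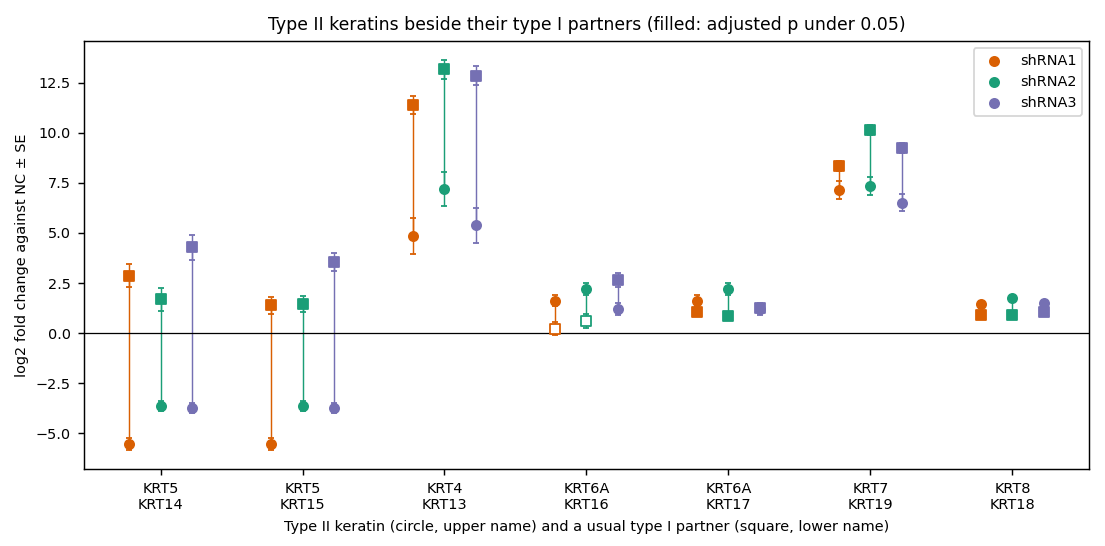
The log2 fold change against NC with its standard error of type II keratins (circles) joined to a usual type I partner (squares), by hairpin, with open symbols for those that did not pass. KRT5 lies below 0 and KRT14 and KRT15 above it for each hairpin, while KRT8 and KRT18, and KRT7 and KRT19, lie on the same side. KRT4 and KRT13 rest on NC libraries with 0 to 4 counts.

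Between genes, levels are compared per kilobase of the principal transcript. In NC the order was KRT8 at 409.5 ± 18.8 CPM per kb (SD, n = 3), KRT5 at 398 ± 16.7, KRT80 at 104 ± 19.9, KRT6A at 39.9 ± 6.53 and KRT7 at 7.59 ± 1.59. The spreads of KRT8 and KRT5 between libraries overlap. Within each NC library KRT8 was the higher, at 41.1%, 43.0% and 43.1% of type II keratin RNA per length against 39.9%, 41.7% and 42.1%. KRT6C and KRT6B followed at 1.77 ± 0.511 and 1.20 ± 0.1097, which overlap within 1 SD, though KRT6C was the higher in each NC library. KRT4, KRT75 and KRT1 were at or below the level of 3 counts. With shRNA1 the order was KRT8 at 1102 ± 138 and KRT7 at 1069 ± 185, which overlap, then KRT6A at 123 ± 63.1 and KRT80 at 66.7 ± 1.63, which also overlap within 1 SD, and KRT5 at 8.45 ± 2.65. By these shares KRT6A was above KRT80 in each shRNA1 library (2.72%, 3.28% and 5.38% against 2.22%, 2.42% and 1.82%). With shRNA2 it was KRT8 at 1362 ± 50.5, KRT7 at 1239 ± 46.9, KRT6A at 185 ± 2.08, KRT80 at 60.4 ± 1.05 and KRT5 at 31.7 ± 0.976. With shRNA3 it was KRT8 at 1149 ± 220.0, KRT7 at 696 ± 439, KRT6A at 91.5 ± 10.2, KRT80 at 57.0 ± 10.9 and KRT5 at 29.6 ± 8.70. With shRNA3, KRT8 and KRT7 overlap within 1 SD. Within each shRNA3 library KRT8 was the higher, at 34.1%, 34.3% and 38.8% of type II keratin RNA per length against 13.9%, 15.7% and 33.3%. By this length KRT8 had the highest mean of the 10 genes in each group, and KRT5 and KRT7 changed places. By the length of all annotated exons the place of KRT8 was lost in NC, with shRNA1 and with shRNA2, as the shares below show.

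As shares of all type II keratin RNA per length, KRT5 made up 41.2% ± 1.16 (SD, n = 3) in NC and 0.266% ± 0.0480, 0.881% ± 0.00800 and 0.951% ± 0.356 with shRNA1, shRNA2 and shRNA3. KRT7 went from 0.783% ± 0.133 to 34.0% ± 1.36, 34.5% ± 0.150 and 21.0% ± 10.7. KRT8 went from 42.4% ± 1.11 to between 35.2% and 37.9%, and KRT80 from 10.7% ± 1.60 to between 1.68% and 2.15%. KRT6A held 4.12% ± 0.492 in NC and 3.79% ± 1.40, 5.16% ± 0.168 and 2.87% ± 0.232 with the hairpins. Outside the 10 genes, the hair keratin KRT81 went from 0.265% ± 0.0420 to 24.4% ± 2.13, 19.6% ± 0.251 and 37.4% ± 12.9. These shares depend on the length used. With the length of all annotated exons, added after seeing the data, the share of KRT8 in NC was between 24.3% and 26.3%, below that of KRT5 (45.1% to 49.1%). KRT7 then exceeded KRT8 with shRNA1 (25% to 27.9% against 19.6% to 19.8%) and with shRNA2 (28.1% to 28.3% against 22.3% to 22.4%). With shRNA3, KRT8 was the higher in libraries 1 and 2 (15.7% and 16.1% against 8.87% and 10.2%). In library 3 of shRNA3 KRT7 was the higher (26.8% against 22.6%). The share of KRT81 with shRNA2 was between 36.9% and 37.8%, and KRT5 still fell from 45.1% or more to 1.06% or less. Total type II keratin RNA per length rose from 904 to 1001 CPM per kb in NC to 2830 to 3721 in the shRNA libraries, and type I keratin RNA from 556 to 602 to 1479 to 2727. Type I keratins made up 37.6% to 38.1% of keratin RNA per length in NC, 33.4% to 34.4% with shRNA1, 42.3% to 42.4% with shRNA2 and 38.3% to 47.3% with shRNA3.

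**Figure D4:**
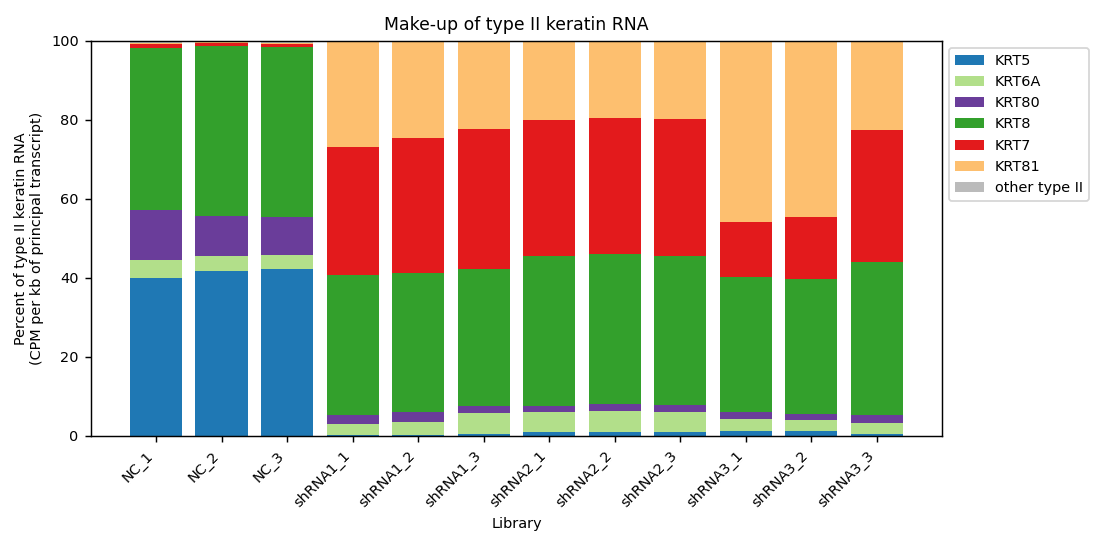
The percent of type II keratin RNA (CPM per kb of the principal transcript) held by KRT5, KRT6A, KRT80, KRT8, KRT7, KRT81 and all other type II keratins in each of the 12 libraries. KRT5 fills 39.9% to 42.1% of the NC bars and under 1.2% of the others, KRT7 and KRT81 appear in all shRNA bars, and libraries 1 and 2 of shRNA3 have less KRT7 and more KRT81 than library 3.

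The other type II keratins of the cluster were mostly unread. Of 16 such genes, 5 passed the filter, and 3, 4 and 3 of these rose with shRNA1, shRNA2 and shRNA3. None fell, by edgeR (0 also at an unadjusted p under 0.05) or by DESeq2. Of all genes tested, 57.4%, 53% and 53.9% were called in either direction, and 26.8%, 24.6% and 26.4% were called higher. KRT3, KRT81 and KRT86 rose with all 3, though KRT3 with shRNA1 (adjusted p = 0.0368) was lost in 5 of 20 alternatives, such as without NC library 2 (adjusted p = 0.116). KRT3 with shRNA3 (adjusted p = 0.0157) was lost in 2 of 20. KRT3 lay near the floor, at 0.098 to 0.252 CPM in NC and at means of 0.564, 1.18 and 0.732 CPM with shRNA1, shRNA2 and shRNA3. KRT81 was at 6.05, 4.67 and 4.16 CPM in NC, at 1337 to 1562 CPM with shRNA1, at 1288 to 1423 CPM with shRNA2, and at 2622, 2546 and 1565 CPM with shRNA3. KRT81 rose 296-fold, 273.5-fold and 452-fold (adjusted p = 2.58e-08, 1.73e-08 and 1.89e-08). KRT86 was at 1.57 to 2.07 CPM in NC and 3.74 to 13.7 CPM in the shRNA libraries. KRT81 and KRT86 overlap on opposite strands and share 29.7% and 25.8% of their 100-base words with other genes, so the values of both, the shares of KRT81 above included, are uncertain. Along the chromosome, genes that rose and fell lay side by side. KRT80 fell and its neighbour KRT7 rose, and KRT6A rose and its neighbour KRT5 fell.

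**Figure D5:**
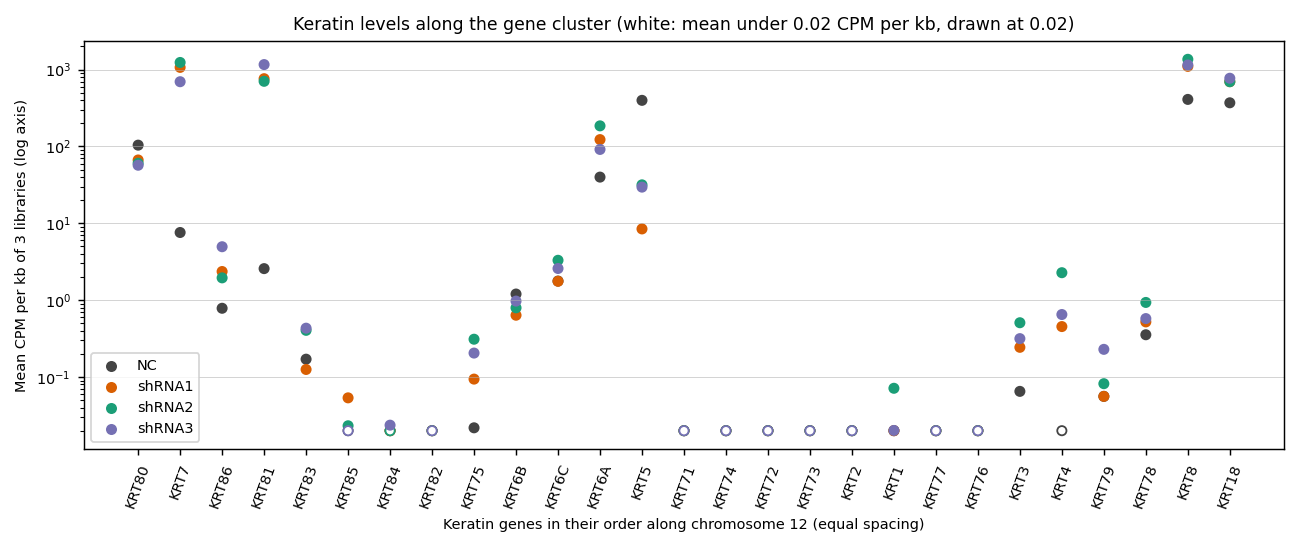
Mean CPM per kb of principal transcript (log axis, 3 libraries per point) of the 27 keratin genes in their order on chromosome 12, with equal spacing and 1 colour per group. KRT7, KRT81 and KRT8 are high in the shRNA groups, KRT5 is high in NC, and the genes from KRT71 to KRT76 are at or near 0 in all groups.

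Of 28 type I keratins, 11 passed the filter. With shRNA1, shRNA2 and shRNA3 8, 7 and 9 of them rose and none fell by edgeR (0 also at an unadjusted p under 0.05) or by DESeq2, with median log2 changes of 1.38, 1.11 and 2.02. Of all genes tested, 26.8%, 24.6% and 26.4% were called higher and 30.6%, 28.4% and 27.6% lower. KRT13, KRT14, KRT15, KRT17, KRT18, KRT19 and KRT23 rose with all 3 hairpins, KRT23 with shRNA3 (adjusted p = 0.0181) not without libraries 1 and 2 of shRNA3 (adjusted p = 0.125). Without those libraries 9, 10 and 7 of 12 type I keratins tested rose and none fell. In that fit 71.3%, 68.1% and 56.9% of all genes were called. KRT5 and KRT80 were thus the only keratins of either type, among the 25 tested, that fell with all 3 hairpins.

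The proteins that tie keratin filaments to desmosomes and hemidesmosomes, or regulate them, changed in both directions. Of 15 such genes, 6 rose and 3 fell with shRNA1, 7 rose and 3 fell with shRNA2, and 8 rose and 2 fell with shRNA3, with median log2 changes of 0.28, 0.60 and 0.78. The shares called are near those of all genes tested, 57.4%, 53% and 53.9%. PLEC (plectin, a linker of filaments to hemidesmosomes) rose 3.87-fold, 2.36-fold and 2.78-fold with shRNA1, shRNA2 and shRNA3. DSP (desmoplakin, which binds keratin at desmosomes) rose 2.80-fold, 3.39-fold and 2.32-fold. PKP3, a desmosomal plaque protein, rose 3.23-fold, 4.58-fold and 3.18-fold, and FAM83H, a keratin-binding protein, rose 2.26-fold, 2.59-fold and 1.71-fold. PKP1, the plakophilin of differentiating squamous cells, fell from 17.3, 18.6 and 18.1 CPM in NC to 0.242 to 0.497 CPM with shRNA1, 0.409 to 0.886 CPM with shRNA2 and 4.96, 4.51 and 1.64 CPM with shRNA3. Its fall with shRNA3 was 4.89-fold, and 10.7-fold without libraries 1 and 2. PKP1 and PKP3 thus changed in opposite directions. TRADD, an adaptor of the tumour necrosis factor receptor that binds keratin, fell 3.25-fold, 2.71-fold and 4.11-fold, the last being 2.63-fold without libraries 1 and 2 of shRNA3. All of these passed the test with each hairpin, at adjusted p-values up to 0.00435 (edgeR).

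By their sums the markers of other cell types were read below the squamous markers, and some moved with the hairpins. Some single markers were not below. In NC, CD68 (mean 63.1 CPM) and COL1A1 (41.7) lay above DSC3 (31.5), DSG3 (24.8) and KRT14 (7.58). The 8 fibroblast markers summed to 56.8 to 59.7 CPM in NC, 15.6 to 21.7 CPM with shRNA1, 44.2 to 48.2 CPM with shRNA2 and 33.1 to 86.6 CPM with shRNA3, and COL3A1 was at or under 3 counts in every group. COL1A2, LUM and PDGFRB fell with all 3 hairpins. COL1A1, the most read of the list, was at 40.3 to 43.05 CPM in NC, 14.8 to 19.7 CPM with shRNA1, where it fell (adjusted p = 0.00321), 43.1 to 46.9 CPM with shRNA2 and 80.3, 85.3 and 31.8 CPM with shRNA3. The 5 leukocyte markers summed to 58.7 to 76.1 CPM in NC, 44.2 to 97.3 CPM with shRNA1, 81.7 to 87.9 CPM with shRNA2 and 109.8 to 236 CPM with shRNA3. Most of that sum was CD68, a lysosomal protein abundant in macrophages, at 53.6 to 71.9 CPM in NC and at 235, 229 and 108 CPM with shRNA3. CD68 rose 3.02-fold with shRNA3 (adjusted p = 0.00146), and 1.75-fold without libraries 1 and 2, which did not pass (adjusted p = 0.0517). In those 2 libraries CD68 lay above KRT80 on the CPM scale. PTPRC, the marker common to leukocytes, was at 0.436 CPM or less in every library. CD14 fell with all 3 hairpins, though the call with shRNA2 was lost in 6 of 21 alternatives. The 4 endothelial markers summed to 17.6 to 23.1 CPM in NC and 3.88 to 13.2 CPM in the shRNA libraries, where VWF and CDH5 fell and PECAM1 rose with all 3 hairpins, VWF with shRNA3 not without libraries 1 and 2 (adjusted p = 0.0639). The 4 melanocyte markers summed to 1.59 to 9.32 CPM over the 12 libraries. The part of these markers in the keratin changes was not tested.

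Some genes followed the keratins closely across the 12 libraries. By Pearson's r of log2 CPM, among genes with a mean of at least 1 CPM, KRT5 was closest to SLC25A42 (r = 0.992) and MYO7A (0.992). KRT7 was closest to LRP3 (0.998) and SMARCC1 (0.998), and KRT8 to DNMT1 (0.997) and FKBP4 (0.996). KRT6A was closest to FAT1 (0.977) and AIFM1 (0.977), and KRT80 to RAB3GAP1 (0.964) and USP31 (0.963). These values describe 12 libraries that fall into NC and shRNA groups, so a gene that differs strongly between those groups in the same sense scores high.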

How the data were processed

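RNA of SCC-15 cells in 12 libraries (4 groups of 3, by their titles) was analysed from a table in which the authors deposited expected counts (estimated counts of reads per gene). The submitters' processing notes name HISAT2, HTSeq 0.11.2 and GRCh38. The annotation, the strand setting and the handling of reads with several matches are not given in the sources used here. Of the values 13.8% are not whole, and counts were rounded. Symbols and positions came from GENCODE release 29 by gene ID (60463 of 61044 IDs).

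Counts were scaled by TMM, filtered with filterByExpr (minimum count 10, total 15) and tested two-sided with edgeR 4.0.16 (R 4.3.3), 1 robust quasi-likelihood model of the 4 groups (8 residual degrees of freedom), and the code was tested on simulated data. Level differences between genes used the length of the principal transcript. The floor is 3 counts. Replicates differed by more than counting noise (chi-square per gene 3.52 or more). Genes named were the 10 members, the KRT6 sum, FMOD, usual type I partners, up to 4 genes per direction of each list that passed with all 3 hairpins (fewer where little is read), and the 2 genes most correlated with each member of at least 10 CPM. TP63, COL1A1 and CD68 were added after their values were seen. The members, lists and partners were chosen with earlier results of these data known. Alternatives were DESeq2 1.42.0 size factors and Wald test, other filters, thinning, fewer libraries, stricter thresholds, a replicate block and summed KRT6 genes. The stricter thresholds were applied to the number of members called and are not among the alternatives counted for single genes. Library totals without TMM, exon length and the alternatives for genes other than members and partners were added after seeing the data.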

Additional observations from a re-analysis of the deposited data

Results flagged for a closer look

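Some results differed between hairpins by a test of the difference itself. KRT4 was lower with shRNA1 than with shRNA2 by a log2 difference of -2.33 (SE 0.58, edgeR adjusted p = 0.0254), on 8 to 48 against 100 to 107 counts. KRT5 was lower with shRNA1 than with shRNA2 (-1.91, SE 0.25, adjusted p = 0.00192) and than with shRNA3 (-1.81, SE 0.25, adjusted p = 0.00257), with every shRNA1 library below every library of the other hairpins. KRT6A was higher with shRNA2 than with shRNA3 (1.02, SE 0.28, adjusted p = 0.0493). The call of KRT6A was lost in 14 of 21 alternatives and that of KRT4 in 5 of 21. For KRT5, the call against shRNA3 was lost in 1 of 22 alternatives and that against shRNA2 in 0 of 22.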

How the results depend on the processing

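There were 21 calls of a member against NC by a single hairpin. In the alternatives that kept the threshold of adjusted p under 0.05 alone, 18 kept their direction and their call. None of the 21 reversed. The exceptions were KRT6B with shRNA1 and KRT75 with shRNA2 and with shRNA3. The stricter threshold of a log2 change of at least 1 also leaves out KRT80, at -0.64, -0.78 and -0.87 with shRNA1, shRNA2 and shRNA3. The number of members called against NC stayed within 1.5 times in each alternative. Leaving out 1 library at a time gave 6 to 7 for shRNA1, 6 to 8 for shRNA2, 6 to 7 for shRNA3 and 6 to 9 for the mean of the hairpins. The share of all genes called can move as well. With shRNA1 it went from 57.4% to 71.3% without libraries 1 and 2 of shRNA3.

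Counts between hairpins were less steady, and the cause was not tested. For shRNA1 against shRNA2 (2 called) the count was 1 at adjusted p under 0.01 and with a mean of at least 50 counts, 4 with only the libraries of the groups compared, 4 without shRNA3 libraries 1 and 2, and 1 to 4 with 1 library left out. For shRNA1 against shRNA3 (1 called) it was 0 with only the groups compared (1 at an unadjusted p under 0.05, edgeR), and 1 to 4 with 1 library left out. For shRNA2 against shRNA3 (1 called) it was 2 with the DESeq2 Wald test and 0 at adjusted p under 0.01, with library totals, with only the groups compared, with the replicate block and without shRNA3 libraries 1 and 2 (2 or 3 of the 9 at an unadjusted p under 0.05, edgeR), and 0 to 4 with 1 library left out. The fit of only the groups compared could not be made for the mean of the hairpins. The share of all genes called is not set beside these counts, so they are not read as a result about the members.

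Reversed signs were of differences that had not passed. KRT6C with shRNA1 was 0.015 with no filter, 0.0049 without shRNA3 libraries 1 and 2, and -0.23 to 0.13 with 1 library left out. KRT6C with shRNA3 was -0.62 without shRNA3 libraries 1 and 2. KRT7 for shRNA1 against shRNA3 was -0.18 without those libraries. With 1 library left out, KRT5 for shRNA2 against shRNA3 ranged from -0.11 to 0.23 and KRT6A for shRNA1 against shRNA3 from -0.074 to 0.66. COL1A1 was -0.36 with shRNA3 without shRNA3 libraries 1 and 2, and -0.039 with shRNA2 by library totals.

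Same-numbered libraries did not deviate together (mean correlation -0.00434 over 18 pairs, 0.00186 for other pairs), so the replicate block pairs libraries by number only. It lost KRT6B with shRNA1 (adjusted p = 0.0716) and KRT6A for shRNA2 against shRNA3 (0.0644). Scaling by library totals moved the median of all genes for shRNA3 against NC from -0.03 to -0.35 and lost KRT75 and FAM83H with shRNA3 (adjusted p = 0.0644 and 0.128). Depth limits KRT1, KRT4 and KRT75.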

Other observations

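Other intermediate filament genes changed in both directions. Of 15 such genes 12 passed the filter, and 4 rose and 3 fell with shRNA1, 6 rose and 3 fell with shRNA2, and 5 rose and 2 fell with shRNA3, with median log2 changes of 0.55, 0.56 and 0.75. Beside them 57.4%, 53% and 53.9% of all genes tested were called, so with shRNA1 and shRNA3 the share is near that background. Without libraries 1 and 2 of shRNA3, 7 of the 12 rose and 4 fell with shRNA1, where 71.3% of all genes were called. VIM (vimentin, the filament of mesenchymal cells) was at 3.43, 3.30 and 3.04 CPM in NC, at 355, 368 and 610 CPM with shRNA1, at 600 to 617 CPM with shRNA2 and at 817, 783 and 478 CPM with shRNA3. VIM rose 136-fold, 186-fold and 212-fold (edgeR adjusted p = 5.45e-08, 3.64e-08 and 3.44e-08), while CDH1 (E-cadherin) fell 8.44-fold, 6.04-fold and 4.89-fold (adjusted p = 5.36e-07, 1.46e-06 and 3.42e-06). KRT7, KRT8 and VIM were thus higher together in the same libraries. Of the 12 squamous epithelial markers, CDH1 and DSC3 fell and KRT14 and PERP rose with all 3 hairpins. Of the 8 fibroblast markers, COL1A2, LUM and PDGFRB fell with all 3 hairpins and 0 rose with all 3.

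The nuclear lamins LMNA and LMNB1 rose with each hairpin, LMNA 2.06-fold, 2.46-fold and 4.97-fold and LMNB1 2.85-fold, 4.38-fold and 3.55-fold. The rise of LMNA with shRNA1 was lost without NC library 3 (adjusted p = 0.0673) and without library 1 of shRNA1 (adjusted p = 0.0614). LMNA was at 3770 and 3687 CPM in libraries 1 and 2 of shRNA3 and at 1217 CPM in library 3, and without libraries 1 and 2 its rise with shRNA3 was 2.14-fold. The neurofilament genes NEFL and NEFM had 29 to 79 counts in the NC libraries and 0 in each of the 9 shRNA libraries, so NEFL was at least 16.0-fold lower and NEFM at least 10.3-fold lower with any hairpin.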
